A study of Mus musculus with 62 samples.

Results

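The genes described here are 38 named genes that mark microglia, the resident macrophages of the brain, chosen by symbol. Of these, 37 have a row among the 47643 genes of the expression table of a mouse neocortex RNA-seq study, and Itgam was not analysed here. All 37 had a mean level of at least 1 TPM (a length-corrected share of a library's RNA, scaled so that each library sums to 1000000) and were tested among 14494 genes that passed that filter. Within the set, P2ry12, Cx3cr1, Tmem119 and Sall1 are homeostatic genes of resting microglia, and Aif1, Tyrobp, Cd68 and Laptm5 are pan-myeloid genes, shared with other cells of the myeloid lineage.

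The study followed cachexia, the wasting that can accompany cancer, in the neocortex of female mice that were 2 months old when injected. CAC mice received melanoma cells that cause cachexia, NCAC mice received melanoma cells that do not, and Con mice received a mock injection. Brains were taken at 2, 4, 6 and 8 weeks, with 5 libraries in each of the 12 groups except CAC at 8 weeks, which has 7, for 62 libraries in all. The series description names athymic nude mice (NCI Ath/nude), which lack a functional thymus, whereas the sample labels give the strain as C57BL6/J, and the files do not settle which is right. The labels call the samples of a group biological replicates. All libraries of 6 and 8 weeks were run on lane 4, and all of 2 weeks on lane 3. At 4 weeks all 5 CAC libraries and 4 of the 5 NCAC libraries were on lane 3 and the others on lane 4, so that arm and lane differ together for CAC and Con there. The tissue label was checked at 8 weeks with 10 excitatory cortical neuron markers. Their summed level was 4662 to 5169 TPM in Con and 4674 to 5259 TPM in CAC. None of the 10 differed by limma between these groups (3 had an unadjusted p under 0.05). Striatal markers summed to at least 752 TPM in every library but CAC replicate 1 at 4 weeks (196 TPM). Choroid plexus markers summed to 20.4 TPM in CAC replicate 5 at 6 weeks and 3117 TPM in CAC replicate 3 at 4 weeks. How much tissue from outside the neocortex each library held was not tested.

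Microglia enter the brain before birth, renew themselves there and depend on signalling through the receptor Csf1r. In the healthy cortex they scan the tissue with fine processes, clear debris and synapses, and carry a set of surface receptors for nucleotides, chemokines and lipids that other macrophages largely lack. The transcription factors PU.1 (gene Spi1), Irf8 and Sall1 and signalling by TGF-beta hold this programme in place. When microglia respond to injury or disease, receptors such as P2ry12 and Tmem119 are known to decline while genes of phagocytosis and lipid handling rise. The tissue was sequenced in bulk, so fewer microglia and less of a transcript in each microglial cell cannot be told apart.

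Promoter sequence is shown for 4 members, to set the letters upstream of P2ry12 and P2ry13, which carry the clearest differences below, beside those of Lpcat2, which was lower with them, and Ctss, which was not called. P2ry12 (chr3:59216272-59262871, minus strand) and P2ry13 (chr3:59207892-59210882, minus strand) are neighbouring genes. Each window holds the 250 bases before the start of a RefSeq transcript in build GRCm38.p6, printed 5′ to 3′ on the gene's strand, at chr3:59262986-59263235 (minus) for P2ry12, chr3:59210883-59211132 (minus) for P2ry13, chr8:92855083-92855332 (plus) for Lpcat2 and chr3:95526536-95526785 (plus) for Ctss. Capitals mark the motifs searched, on either strand.
P2ry12: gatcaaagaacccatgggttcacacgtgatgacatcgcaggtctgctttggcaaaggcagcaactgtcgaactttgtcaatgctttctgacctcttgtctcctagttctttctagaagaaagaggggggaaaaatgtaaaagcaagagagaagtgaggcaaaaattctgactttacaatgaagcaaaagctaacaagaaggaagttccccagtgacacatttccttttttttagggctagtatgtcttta
P2ry13: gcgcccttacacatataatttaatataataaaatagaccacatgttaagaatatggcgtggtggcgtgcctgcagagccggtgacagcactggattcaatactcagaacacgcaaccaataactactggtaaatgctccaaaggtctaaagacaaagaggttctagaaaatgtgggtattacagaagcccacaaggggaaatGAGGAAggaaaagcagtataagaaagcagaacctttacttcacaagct
Lpcat2: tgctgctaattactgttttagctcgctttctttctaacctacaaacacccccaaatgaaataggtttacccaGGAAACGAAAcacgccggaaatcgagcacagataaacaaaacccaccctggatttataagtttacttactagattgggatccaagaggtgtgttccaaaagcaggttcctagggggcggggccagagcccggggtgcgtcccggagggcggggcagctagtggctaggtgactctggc
Ctss: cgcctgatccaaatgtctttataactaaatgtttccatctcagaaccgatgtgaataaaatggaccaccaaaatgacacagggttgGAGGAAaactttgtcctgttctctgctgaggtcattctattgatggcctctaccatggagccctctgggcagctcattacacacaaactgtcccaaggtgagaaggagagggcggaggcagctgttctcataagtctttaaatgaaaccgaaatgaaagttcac

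The motifs were GAGGAA, the core bound by PU.1, the longer PU.1 form GAGGAAGT, which contains the core, and the ETS-IRF composite motif, to which PU.1 binds with Irf8. A window was found for 28 of the 37 genes. GAGGAA stood in the windows of 14 of the 28 genes (50%) and of 25.9% of 27025 mouse genes. GAGGAAGT stood in 3 of the 28 (10.7%) and in 2.79% of all genes, and the composite motif in 1 of the 28, Lpcat2 (3.57%), and in 2.68% of all genes. P2ry13 and Ctss hold GAGGAA, and none of these letters stand in the P2ry12 window.

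Before any comparison, 2 libraries stood apart in the level of these genes. The summed level of the 37 members was 1957 TPM in Con replicate 5 at 8 weeks and 1981 TPM in CAC replicate 2 at 6 weeks, against 716 to 1347 TPM in the other 60 libraries. In each of them, 23 of the 37 members exceeded 1.5 times the median of the other 4 libraries of the group. Of all genes tested, 3.82% and 2.71% did so, and 20 members did so in both. The libraries were picked by the summed level of these same genes, so the excess over all genes describes them and is not a test. The complement genes C1qa, C1qb and C1qc reached 296, 189 and 103 TPM in the Con library and 331, 217 and 125 TPM in the CAC library. The nucleotide receptors and Gpr34 did not follow: P2ry12 was at 1.09 and 1.06 times the median of its group in the same libraries, P2ry13 at 1.15 and 1.10 times, and Gpr34 at 1.11 and 1.15 times. Fcrls was low in both, at 0.33 and 0.58 times.

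**Figure D1:**
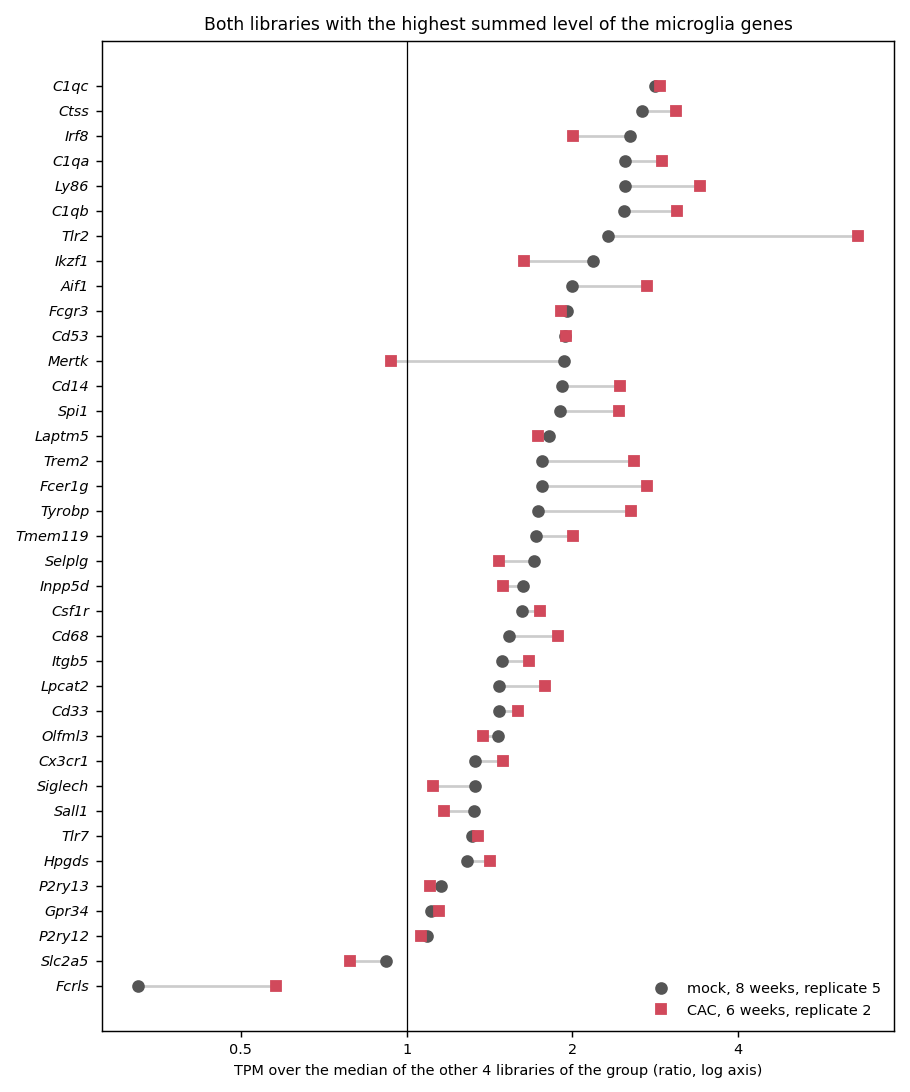
Level of each of the 37 microglia genes in Con replicate 5 at 8 weeks (grey circles) and CAC replicate 2 at 6 weeks (red squares), as the ratio of its TPM to the median of the other 4 libraries of the same group, on a log axis; grey lines join both values of a gene and the vertical line marks a ratio of 1. In each library 23 genes lie above 1.5, while P2ry12, P2ry13 and Gpr34 lie between 1.06 and 1.15 and Fcrls lies below 1.

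The Con library also held RNA of lymphocytes. Igkc, an immunoglobulin light chain, was at 652 TPM, against a median of 1.08 TPM in the other 4 libraries of its group, and the T cell genes Cd3e and Cd3g were at 3.20 and 7.49 TPM. In the CAC library Igkc was at 0.76 TPM and Cd3e and Cd3g were listed at 0. These libraries belong to opposite arms, and calls of members below that changed without either are given both ways. Calls of genes from other lists were not checked without them. The part of lymphocyte RNA in the members' values was not tested. Another library, CAC replicate 3 at 8 weeks, had a summed level of 5 erythroid markers of 22528 TPM, against at most 4323 TPM in any other. Con replicate 5 at 2 weeks had the lowest cortical neuron markers (2849 TPM, others at least 3728 TPM) and CAC replicate 1 at 4 weeks the lowest striatal markers (196 TPM, others at least 752 TPM).

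At 8 weeks 15 of the 37 microglia genes were lower in CAC than in Con mice, 22 did not pass the test, and the number called depended on Con replicate 5. limma with Benjamini-Hochberg adjustment over all genes tested called the 15 lower and none higher, against 3.69% of all genes called lower and 8.60% called in either direction. The fitted log2 difference was negative for 34 of the 37, with a median of -0.34 (all genes, 0.02) and a range from -0.90 for Olfml3 to 0.30 for Cd14. Without Con replicate 5, 9 of the 15 were still called (2.58% of all genes lower), the median was -0.20, and 30 of the 37 were negative. The 9 were P2ry12, P2ry13, Cx3cr1, Gpr34, Olfml3, Fcrls, Hpgds, Lpcat2 and Aif1, and the 6 that were lost were Laptm5, Cd53, Csf1r, Trem2, Cd33 and Itgb5. The fitted difference moved by more than 1.5 times without that library in 23 of the 37, and 4 changed sign. All differences below are on the log2(TPM + 1) scale, CAC minus the other arm, which understates the change of weakly expressed genes.

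Among the nucleotide and lysolipid receptors, P2ry12, P2ry13 and Gpr34 all fell. P2ry12, the ADP receptor that steers microglial processes, was at 58.8, 57.0, 57.7, 58.4 and 63.3 TPM in the Con libraries and at 27.2, 37.7, 50.4, 44.3, 43.0, 28.0 and 40.7 TPM in the CAC libraries. The groups did not overlap, and the spread was wider among the CAC mice (SD 8.54 TPM, n = 7) than among the Con mice (SD 2.45 TPM, n = 5). P2ry12 fell by 0.62 (SE 0.11, adjusted p = 0.000101, limma), and the CAC mean was 65.7% of the Con mean.

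P2ry13, its close relative and a second ADP receptor, was at 17.3, 20.1, 18.4, 16.5 and 20.6 TPM in Con and at 7.46, 9.18, 15.3, 11.1, 13.7, 7.99 and 10.3 TPM in CAC. Every CAC library lay below every Con library. P2ry13 fell by 0.78 (SE 0.12, adjusted p = 2.72e-05), with the CAC mean at 57.6% of the Con mean. Gpr34, a receptor for lysophosphatidylserine, was at 21.4, 18.7, 21.2, 22.6 and 23.6 TPM in Con and at 8.54, 14.2, 21.1, 14.7, 17.6, 10.9 and 15.8 TPM in CAC. It fell by 0.56 (SE 0.12, adjusted p = 0.00144), and only CAC replicate 3 reached the Con range. Neither of the libraries set apart moved these calls: without Con replicate 5, P2ry13 fell by 0.74 (adjusted p = 0.000236), P2ry12 by 0.60 (adjusted p = 0.000616) and Gpr34 by 0.53 (adjusted p = 0.00696).

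The same CAC mice were low for most members. Replicate 6 was the lowest of the 7 CAC libraries for 17 of the 37 genes and replicate 1 for 15, while replicate 3, the library with the high erythroid markers, was the highest for 20. When replicate 3 was left out, 17 members were called lower. Calls over all genes ranged from 723 to 1762 in fits that left out 1 library. Without the 3 libraries set apart by tissue markers, which include replicate 3, 18 members and 2020 genes were called. With all libraries these counts were 15 and 1247.

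**Figure D2:**
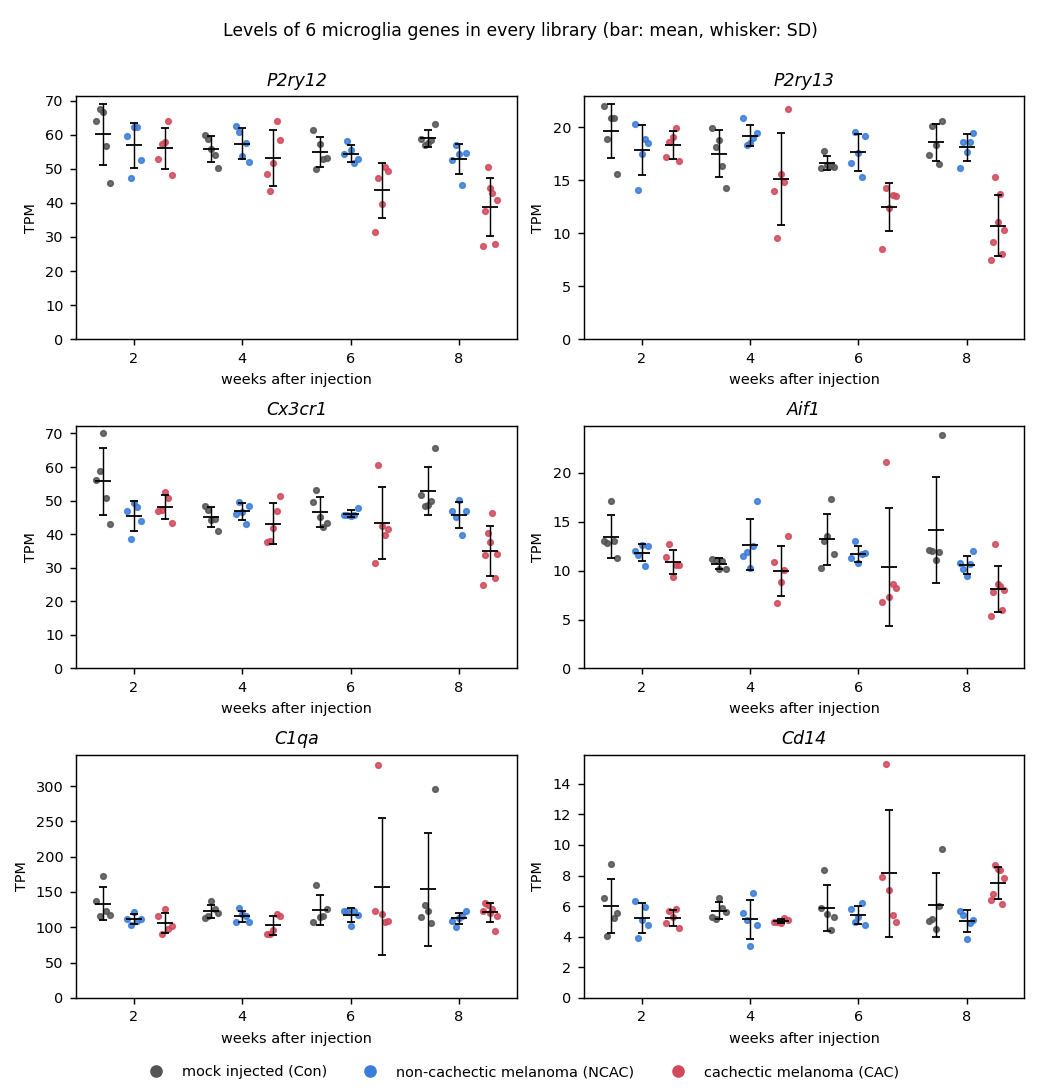
TPM of P2ry12, P2ry13, Cx3cr1, Aif1, C1qa and Cd14 in every library by week after injection, for mock (grey), NCAC (blue) and CAC (red) mice; bars are means and whiskers SD. At 8 weeks all 7 CAC points for P2ry12 and P2ry13 lie below all 5 mock points, while the high single points for C1qa are Con replicate 5 at 8 weeks (296 TPM) and CAC replicate 2 at 6 weeks (331 TPM).

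Of the other homeostatic genes of resting microglia, Cx3cr1 fell and Tmem119 and Sall1 did not pass the test. Cx3cr1, the receptor for the neuronal chemokine fractalkine, was at 51.8, 48.5, 48.6, 49.97 and 65.6 TPM in Con and at 24.8, 33.9, 40.4, 37.7, 46.3, 27.1 and 34.2 TPM in CAC, without overlap. It fell by 0.60 (SE 0.11, adjusted p = 0.000203), and by 0.52 without Con replicate 5 (adjusted p = 0.00254). Tmem119, a membrane protein used as a microglia stain, was at 31.7, 30.3, 33.5, 32.9 and 55.6 TPM in Con and at 21.0, 27.5, 31.2, 30.5, 35.8, 21.0 and 31.3 TPM in CAC. The groups overlapped, and the difference was -0.35 (95% interval -0.62 to -0.09, adjusted p = 0.0885), or -0.20 without Con replicate 5. Sall1, a transcription factor of microglial identity, was at 16.3, 18.8, 15.7, 15.6 and 21.2 TPM in Con and at 11.9, 12.99, 14.9, 16.2, 24.9, 12.5 and 13.7 TPM in CAC. Its highest value of the week was in a CAC library, replicate 5, and the difference was -0.21 (interval -0.47 to 0.05, adjusted p = 0.355).

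Olfml3, a secreted olfactomedin-like protein made by microglia, had the largest fitted difference of the 37 at 8 weeks with all libraries. Without Con replicate 5 its difference was -0.79, and that of Fcrls was larger (-1.02). Olfml3 was at 6.10, 6.42, 6.12, 5.07 and 8.97 TPM in Con and at 2.06, 2.51, 6.08, 3.15, 4.39, 1.52 and 2.71 TPM in CAC. All CAC libraries but replicate 3 were below the Con range, and Olfml3 fell by 0.90 (SE 0.19, adjusted p = 0.00104). Fcrls, an Fc receptor-like protein of microglia, was at 7.62, 6.72, 4.83, 6.15 and 2.09 TPM in Con and at 3.08, 2.35, 6.58, 1.27, 3.06, 1.26 and 2.44 TPM in CAC. The groups overlapped through Con replicate 5 and CAC replicate 3. Fcrls fell by 0.78 (SE 0.24, adjusted p = 0.0312), or by 1.02 without Con replicate 5 (adjusted p = 0.00536). The Fcrls call was kept in 11 of 20 alternative fits. Among others, it was lost without CAC replicate 2, 4 or 6 and without Con replicate 1, 2 or 4.

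A pair of enzymes of lipid mediators also separated the arms. Hpgds, a prostaglandin D synthase, was at 4.81, 4.45, 5.22, 5.73 and 6.46 TPM in Con and at 1.58, 2.98, 4.32, 3.46, 3.65, 2.28 and 2.88 TPM in CAC, and fell by 0.68 (SE 0.12, adjusted p = 0.000167). Lpcat2, a lysophosphatidylcholine acyltransferase, was at 8.08, 8.25, 6.59, 6.62 and 10.8 TPM in Con and at 4.00, 4.66, 6.00, 5.38, 5.95, 4.28 and 4.40 TPM in CAC, and fell by 0.60 (SE 0.11, adjusted p = 0.000344). Neither gene overlapped between the groups. With P2ry12, P2ry13 and Cx3cr1 they were the 5 members whose CAC libraries all lay below the Con libraries, as 1.77% of all genes did.

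Csf1r, the receptor for Csf1 and Il34 on which microglia depend, was at 66.7 to 111 TPM in Con (median 69.5) and at 51.7 to 68.6 TPM in CAC (median 60.1). It fell by 0.34 (adjusted p = 0.0365), a call that was lost without Con replicate 5 (-0.20, adjusted p = 0.288). Itgb5, an integrin chain also found in other brain cells, fell by 0.30 (adjusted p = 0.0454), and the call was lost in the same way (-0.19, adjusted p = 0.294). The remaining surface proteins did not pass: Siglech, a sialic acid-binding lectin, differed by -0.28 (adjusted p = 0.0794), Selplg, the ligand of P-selectin, by -0.25 (adjusted p = 0.157; -0.11 without Con replicate 5) and Slc2a5, a fructose transporter, by -0.06 (adjusted p = 0.856).

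Among the pan-myeloid genes Aif1 and Laptm5 fell, whereas Tyrobp and Cd68 did not pass the test. Aif1, which encodes the actin-binding protein Iba1 used to stain microglia, was at 12.1, 11.96, 11.1, 11.95 and 23.8 TPM in Con and at 5.40, 7.83, 12.7, 8.60, 8.45, 5.92 and 8.07 TPM in CAC. Con replicate 5 lay far above the rest, and CAC replicate 3 alone reached the Con range. Aif1 fell by 0.71 (SE 0.17, adjusted p = 0.00425), and by 0.52 without Con replicate 5 (adjusted p = 0.0491). Laptm5, a lysosomal membrane protein of blood cells, was at 27.1, 27.8, 26.2, 27.1 and 49.1 TPM in Con and at 18.1, 22.8, 28.0, 22.4, 24.5, 19.2 and 24.5 TPM in CAC. It fell by 0.42 (adjusted p = 0.0111), but the difference was -0.25 without Con replicate 5 (adjusted p = 0.142).

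Tyrobp, the adaptor DAP12 of several myeloid receptors, was at 49.6, 52.9, 53.4, 48.2 and 88.9 TPM in Con and at 40.4, 48.9, 54.4, 51.4, 49.4, 33.5 and 43.5 TPM in CAC. The ranges overlapped, and the difference was -0.32 (95% interval -0.61 to -0.04, adjusted p = 0.16), or -0.16 without Con replicate 5. Cd68, a lysosomal glycoprotein of phagocytes, was at 12.8, 12.6, 14.03, 16.4 and 20.6 TPM in Con and at 11.9, 14.5, 16.5, 15.5, 10.7, 12.03 and 14.9 TPM in CAC. The ranges overlapped, and the difference was -0.14 (interval -0.39 to 0.11, adjusted p = 0.543), or -0.03 without Con replicate 5.

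Set side by side, the homeostatic and the pan-myeloid genes each had 4 of 4 negative differences and 2 of 4 called, with medians of -0.48 and -0.37. Without Con replicate 5 the homeostatic genes had 2 of 4 called and a median of -0.36, and the pan-myeloid genes 1 of 4, Aif1, and a median of -0.21. The mean log2(TPM + 1) of the homeostatic genes was 4.42 to 5.23 in CAC and 5.17 to 5.59 in Con at 8 weeks, and that of the pan-myeloid genes 3.99 to 4.64 in CAC and 4.49 to 5.30 in Con. The homeostatic mean less the pan-myeloid mean was 0.38 to 0.95 (median 0.49) in CAC, 0.42 to 0.63 in NCAC and 0.29 to 0.70 (median 0.66) in Con. The lowest Con value was that of replicate 5. The other 4 Con libraries were at 0.61 to 0.70. Of the 7 CAC libraries, 6 were below all of them (at most 0.57) and CAC replicate 5 was above, at 0.95. Most NCAC libraries also lay below these 4 Con libraries, so a low value was not particular to CAC. Over all 62 libraries the homeostatic mean less the pan-myeloid mean was lowest in the pair that stood apart. It was 0.04 in CAC replicate 2 at 6 weeks and 0.29 in Con replicate 5 at 8 weeks.

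**Figure D3:**
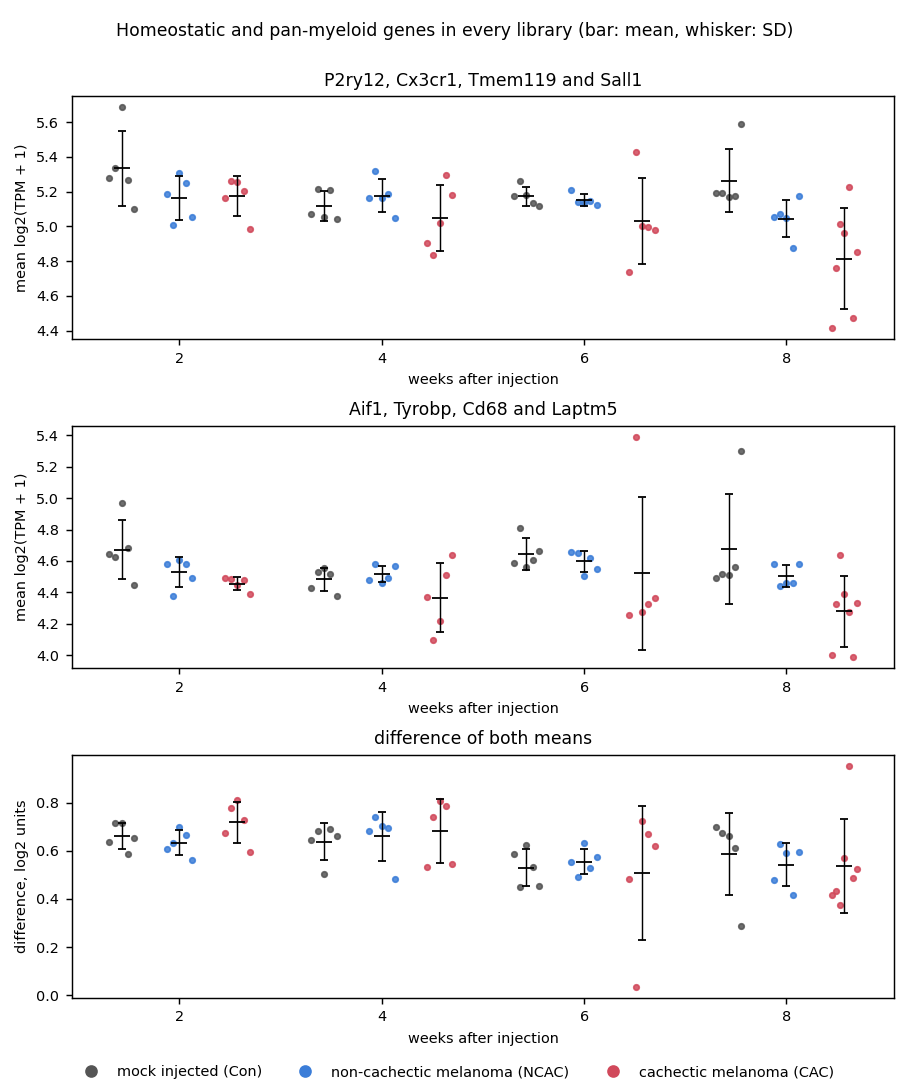
Mean log2(TPM + 1) of the 4 homeostatic genes (top), of the 4 pan-myeloid genes (middle) and the homeostatic mean less the pan-myeloid mean (bottom) in every library by week, for mock (grey), NCAC (blue) and CAC (red) mice; bars are means and whiskers SD. At 8 weeks 6 of 7 CAC points for the difference, and most NCAC points, lie below the mock points other than Con replicate 5. The lowest points of all weeks are CAC replicate 2 at 6 weeks (0.04) and Con replicate 5 at 8 weeks (0.29).

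The Trem2 call depended on Con replicate 5, among other libraries, and the Fc receptor genes Fcer1g and Fcgr3 did not pass the test. Trem2, a lipid-sensing receptor that signals through Tyrobp, was at 6.30, 7.13, 7.91, 6.91 and 12.4 TPM in Con and at 4.27, 5.43, 7.96, 5.44, 6.56, 3.75 and 5.55 TPM in CAC. Most CAC libraries lay below the Con range, and Trem2 fell by 0.47 (adjusted p = 0.0306), against -0.32 without that library (adjusted p = 0.205). Fcer1g, the common signalling chain of Fc receptors, was at 14.6, 14.4, 13.2, 12.7 and 24.3 TPM in Con and at 8.97, 10.5, 16.3, 11.5, 13.3, 9.61 and 10.2 TPM in CAC, a difference of -0.41 (adjusted p = 0.0742), or -0.26 without Con replicate 5. Fcgr3, a low-affinity Fc receptor, differed by -0.13 (adjusted p = 0.624), and by 0.05 without it.

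Cd33, an inhibitory lectin, was at 4.18, 4.29, 3.54, 3.92 and 5.96 TPM in Con and at 2.56, 2.81, 3.31, 3.57, 2.64, 3.26 and 3.39 TPM in CAC. Only CAC replicate 4 lay inside the Con range, and Cd33 fell by 0.39 (adjusted p = 0.0264; -0.29 and adjusted p = 0.156 without Con replicate 5). Cd53, a tetraspanin of white blood cells, fell by 0.41 (adjusted p = 0.0331; -0.23 and adjusted p = 0.296 without it). Inpp5d, a phosphatase that dampens receptor signalling, differed by -0.16 (adjusted p = 0.349; -0.03 without it), and Ly86, a partner of the Toll-like receptor family, by -0.53 with a wide interval (-0.96 to -0.10, adjusted p = 0.12), or -0.27 without it.

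The C1q genes and Ctss did not pass the test. C1qa was at 114, 131, 123, 105 and 296 TPM in Con and at 123, 134, 131, 120, 126, 94.5 and 116 TPM in CAC. C1qb was at 73.6, 81.7, 78.9, 66.7 and 189 TPM in Con and at 74.0, 78.5, 86.7, 69.7, 77.4, 61.6 and 72.3 TPM in CAC. C1qc was at 35.6, 39.3, 36.7, 36.6 and 103 TPM in Con and at 40.4, 48.1, 49.8, 44.8, 44.6, 35.3 and 40.8 TPM in CAC. These 3 genes encode the chains of C1q, which starts the classical complement pathway and tags synapses for removal. Apart from Con replicate 5 their levels overlapped between the arms. For C1qc the overlap rested on CAC replicate 6 alone, and every other CAC library lay above the Con libraries other than replicate 5. The differences were -0.24 (95% interval -0.58 to 0.10, adjusted p = 0.429), -0.28 (-0.63 to 0.06, adjusted p = 0.344) and -0.08 (-0.43 to 0.28, adjusted p = 0.851). For C1qc the sign turned without Con replicate 5, to 0.22 (adjusted p = 0.496), and that of C1qa to 0.03 (adjusted p = 0.957), while C1qb was at -0.02 (adjusted p = 0.968). Ctss, the lysosomal protease cathepsin S, was at 103 to 154 TPM in CAC and 144 to 397 TPM in Con, a difference of -0.40 (adjusted p = 0.162), or -0.12 without Con replicate 5.

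Pattern receptors, the engulfment receptor and the lineage transcription factors did not differ beyond the threshold at 8 weeks. Cd14, a co-receptor for bacterial lipopolysaccharide, was at 5.04, 5.12, 4.51, 6.01 and 9.74 TPM in Con and at 6.37, 6.80, 8.67, 8.43, 8.38, 6.11 and 7.81 TPM in CAC. Every CAC library exceeded the first 4 Con libraries, and the difference was 0.30 (adjusted p = 0.253), or 0.46 without Con replicate 5 (adjusted p = 0.0737). In the fit without both libraries that stood apart Cd14 was called higher (0.46, adjusted p = 0.0264). Mertk, a kinase receptor for dying cells that astrocytes also carry, differed by 0.28 (adjusted p = 0.259; 0.45 without Con replicate 5) and the RNA sensor Tlr7 by 0.17 (adjusted p = 0.411). Tlr2, a sensor of bacterial lipoproteins, was the weakest member at 0.62 to 1.56 TPM in CAC and differed by -0.41 (adjusted p = 0.234; -0.24 without Con replicate 5). The transcription factors Spi1, Irf8 and Ikzf1 were at mean levels of 2.64, 2.04 and 2.36 TPM in CAC and 3.33, 2.87 and 2.92 TPM in Con. Their differences were -0.23, -0.29 and -0.18 (adjusted p = 0.3, 0.129 and 0.35), and -0.09, -0.08 and 0.00 without Con replicate 5.

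**Figure D4:**
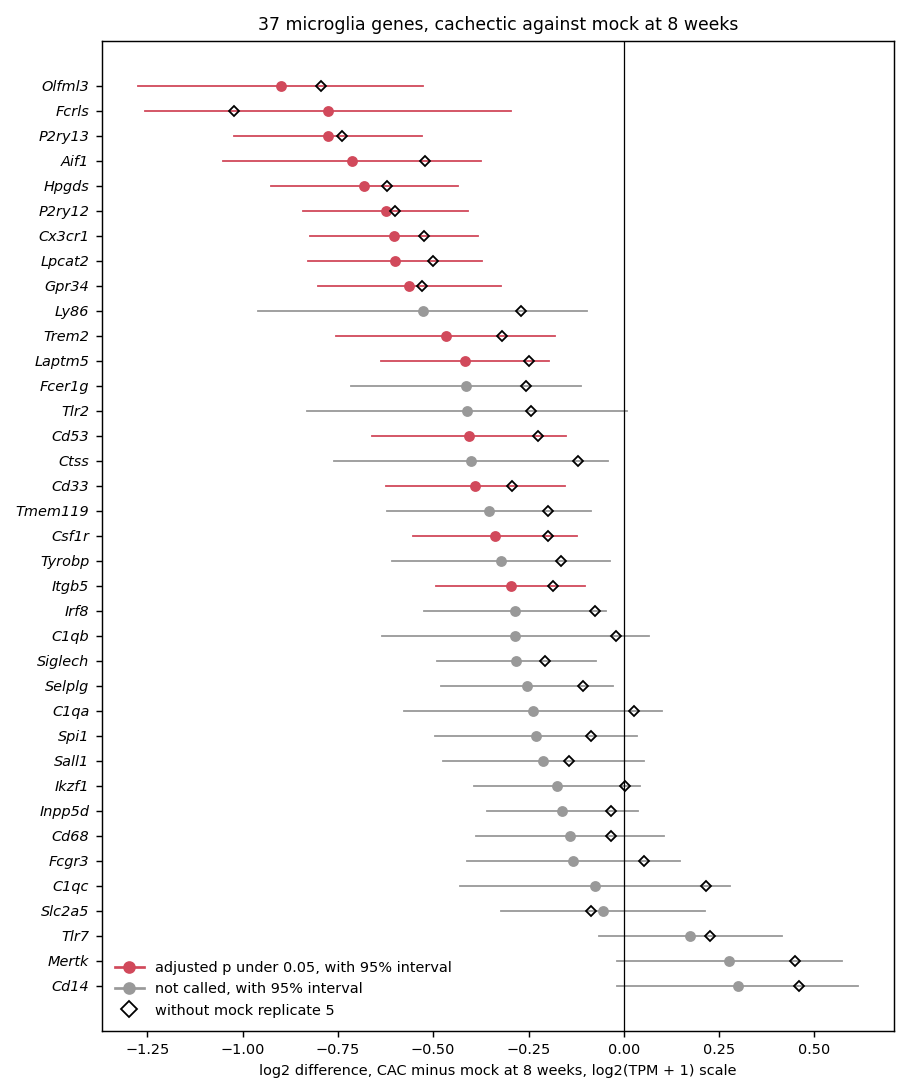
Fitted log2 difference, CAC minus mock at 8 weeks on the log2(TPM + 1) scale, for each of the 37 microglia genes with its 95% interval; red genes passed an adjusted p of 0.05, grey genes did not, and open diamonds give the value without mock replicate 5. The 15 red genes all lie below 0, and the diamonds of P2ry12, P2ry13 and Gpr34 lie close to their points while those of C1qa, C1qb, C1qc and Ctss move to the right.

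Against NCAC mice, which also carried melanoma, the CAC mice were lower for fewer members than against Con when all libraries were fitted. At 8 weeks 7 members were called lower and 2 higher, against 1.64% and 4.39% of all genes (6.02% in either direction; with TMM scaling, 2.90% lower and 2.77% higher). TMM scaling divides each library by a trimmed mean of its ratios to a reference library. Without both libraries that stood apart the counts were closer, with 8 members called lower against NCAC (1.71% of all genes) and 9 against Con (2.60%). P2ry12 was at 52.7, 57.1, 54.5, 45.4 and 54.7 TPM in NCAC, and fell by 0.46 in CAC (adjusted p = 0.00489). P2ry13 was at 16.1, 18.6, 17.7, 18.6 and 19.4 TPM in NCAC, above every CAC library, and fell by 0.74 (SE 0.12, adjusted p = 7.82e-05); it was the 1 member whose CAC libraries all lay below those of NCAC (0.476% of all genes). The other 5 called lower were Fcrls (-1.01, adjusted p = 0.0061), Hpgds (-0.49, adjusted p = 0.00886), Olfml3 (-0.70, adjusted p = 0.0152), Cx3cr1 (-0.40, adjusted p = 0.0172) and Gpr34 (-0.40, adjusted p = 0.0322). All 7 are also among the 15 called against Con, a comparison that shares the CAC libraries.

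The 2 called higher were Cd14 and Tlr7. Cd14 was at 5.71, 5.44, 3.84, 4.91 and 5.10 TPM in NCAC, below every CAC library, and rose by 0.50 (adjusted p = 0.0426), while Tlr7 rose by 0.39 (adjusted p = 0.0375). Both calls were lost without the filter on level and with TMM scaling, and of 12 fits that each left out 1 library, Cd14 lost its call in 10 and Tlr7 in 6. Mertk differed by 0.45 (adjusted p = 0.0577), Lpcat2 by -0.32 (adjusted p = 0.0826) and Aif1 by -0.38 (adjusted p = 0.18).

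NCAC and Con mice did not differ in any member at 8 weeks by limma, where no gene of the table was called; 10 members and 4.39% of all genes had an unadjusted p under 0.05. The median difference was -0.21 with 34 of 37 negative, and -0.10 with 31 negative without Con replicate 5. P2ry12 differed by -0.16 and Cx3cr1 by -0.20. Fcrls differed by 0.23, and by -0.02 without Con replicate 5.

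At 6 weeks the CAC mice were lower in Fcrls, and against NCAC also in Olfml3 and P2ry13. Fcrls was at 1.05, 1.47, 3.42, 2.40 and 2.67 TPM in CAC, at 2.79, 3.96, 5.52, 7.90 and 8.67 TPM in Con and at 7.18, 5.29, 5.88, 6.92 and 3.50 TPM in NCAC. It fell by 1.05 against Con (SE 0.26, adjusted p = 0.0206), the 1 member called there, and by 1.10 against NCAC (adjusted p = 0.00735). Of all genes, 0.428% were called lower and 1.20% higher against Con (1.63% in either direction; with TMM scaling, 0.724% and 0.773%). The CAC values lay below all NCAC values and overlapped those of Con. The call against Con was lost without CAC replicate 2 (-0.97, adjusted p = 0.0592), when Aif1 was called in its place (-0.69, adjusted p = 0.0156). It was also lost without CAC replicate 1, without Con replicate 3, 4 or 5, and with only the groups compared, and was kept in 12 of 18 alternatives.

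Olfml3 was at 2.72, 3.79, 4.72, 1.83 and 2.80 TPM in CAC at 6 weeks and at 6.99, 6.56, 5.56, 5.95 and 5.69 TPM in NCAC, and fell by 0.81 (adjusted p = 0.0102). P2ry13 was at 8.55, 14.2, 12.4, 13.6 and 13.5 TPM in CAC, at 16.2, 17.7, 16.4, 16.4 and 16.3 TPM in Con and at 16.6, 19.5, 17.6, 15.3 and 19.1 TPM in NCAC. Every CAC library lay below both other arms. P2ry13 fell by 0.48 against NCAC (adjusted p = 0.019), while its difference from Con was -0.41 (adjusted p = 0.101). P2ry12 was at 31.6, 47.3, 39.6, 50.5 and 49.5 TPM in CAC and at 54.4, 58.2, 55.5, 51.6 and 52.9 TPM in NCAC, without overlap, at a difference of -0.33 (adjusted p = 0.0569). P2ry12, P2ry13, Olfml3 and Fcrls were the 4 members whose CAC and NCAC libraries did not overlap at 6 weeks, as 1.48% of all genes did in that direction.

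The 3 members called against NCAC at 6 weeks compare with 1.60% of all genes called lower and 8.05% called higher (9.65% in either direction); with TMM scaling 4 members were called lower, with 3.04% of all genes lower and 1.92% higher. Over the whole set the difference was near 0 (median -0.03, 20 of 37 negative), and it moved with CAC replicate 2. Without that library 9 members were called lower, adding P2ry12, Aif1, Fcer1g, Laptm5, Ly86 and Trem2 (1.81% of all genes lower), with a median of -0.22. Against Con the median moved from -0.03 to -0.23, with 31 of 37 negative. Between NCAC and Con at 6 weeks limma called no member and no gene of the table, and 1 member and 6.58% of all genes had an unadjusted p under 0.05.

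At 4 weeks no member was called in any of the 3 comparisons, in which limma called 0.0414% of all genes (CAC against Con), 0 genes (NCAC against Con) and 0.00690% (CAC against NCAC). At an unadjusted p under 0.05 there were 1, 0 and 2 members, against 13.1%, 0.614% and 16.3% of all genes. Without CAC replicate 5 the calls over all genes numbered 760 for CAC against Con (0 members) and 1566 for CAC against NCAC (1 member), and without CAC replicate 3 they numbered 24 and 279. With lane as a term no member was called, and the median of the members moved from -0.12 to -0.23 for CAC against Con and from 0.00 to -0.11 for NCAC against Con; the lane term rests on the 1 NCAC library on lane 4, since every other group was on 1 lane. P2ry13 in CAC ranged from 9.51 to 21.7 TPM (mean 15.1 ± 4.36, SD, n = 5), a wider range than in Con (14.3 to 19.9 TPM) or NCAC (18.3 to 20.8 TPM), and its difference from NCAC was -0.37 (adjusted p = 0.171). Olfml3 differed by -0.52 from Con (adjusted p = 0.278).

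At 2 weeks no member was called either, although limma called 4.28% of all genes for CAC against Con (3.68% higher and 0.600% lower; 3.50% and 1.25% with TMM scaling) and 8.71% for NCAC against Con (5.87% higher and 2.84% lower; 7.71% and 5.14% with TMM scaling), and none between the tumour arms, where no member had an unadjusted p under 0.05. All 37 members were lower in the CAC mean than in the Con mean (median -0.22; range -0.54 to -0.02), and 35 were lower in the NCAC mean (median -0.18). Unadjusted p-values under 0.05 numbered 4 and 5, against 21.7% and 27.3% of all genes. Every CAC library lay below every Con library in 3 members, Olfml3, Ctss and Itgb5 (1.16% of all genes). Every NCAC library did so in 1 member, Ctss (1.28% of all genes). The Con group at 2 weeks holds replicate 3, the library with the highest summed level of the members (1347 TPM) after the pair that stood apart; without it 35 of 37 differences from CAC were negative and the median was -0.12.

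Whether the CAC difference itself grew with time was tested as an interaction. Between 2 and 8 weeks P2ry13 moved by -0.69 (SE 0.18, adjusted p = 0.0383) and was the 1 member called (0.711% of all genes in that direction, 0.607% in the other and 1.32% in either). P2ry12 (-0.53, adjusted p = 0.0759) and Hpgds (-0.60, adjusted p = 0.076) did not pass. The P2ry13 call was lost without the filter on level, with TMM scaling and in 13 of 22 fits that left out 1 library. The mean level of P2ry13 in CAC was 18.3 ± 1.28 TPM at 2 weeks, 15.1 ± 4.36 at 4, 12.5 ± 2.29 at 6 (SD, n = 5 each) and 10.7 ± 2.89 at 8 weeks (n = 7), and in Con 19.6 ± 2.54, 17.5 ± 2.22, 16.6 ± 0.65 and 18.6 ± 1.76 TPM (n = 5 each).

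Between 6 and 8 weeks no member and no gene was called, and 5 members (1.28% of all genes) had an unadjusted p under 0.05. The median change of -0.29 became 0.04 without both libraries that stood apart, with 14 of 37 negative in place of 33. In Con mice alone, 8 against 4 weeks gave no call in the table, and 2 members, Hpgds (0.44) and Cd33 (0.39), had an unadjusted p under 0.05, as did 14.2% of all genes.

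Other genes linked to microglia moved in both directions at 8 weeks, CAC against Con. Calls of genes outside the members come from the fit with all libraries, and whether they hold without Con replicate 5 was not tested. Of 18 further microglia genes tested, 2 rose, Sparc and Golm1, and 3 fell, among them Bin2 and Rgs10, with a median of -0.05 and 9 of 18 negative. Sparc, a secreted matrix protein also made by astrocytes and endothelial cells, was 204 ± 18.6 TPM in Con and 360 ± 53.6 TPM in CAC (log2 difference 0.81, adjusted p = 0.00047), and Golm1, a Golgi protein, rose by 0.32 (adjusted p = 0.0131). Bin2, a membrane-bending protein of blood cells, fell by 0.68 (adjusted p = 0.00408), and Rgs10, a regulator of G protein signalling, by 0.27 (adjusted p = 0.0492).

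Of 15 tested genes of survival and fate signalling, Cebpa, a myeloid transcription factor, rose by 0.43 (adjusted p = 0.0464) and Tgfbr1, a TGF-beta receptor, fell by 0.28 (adjusted p = 0.0353). The Csf1r ligands did not pass: Csf1 differed by 0.17 (adjusted p = 0.183) and Il34 by -0.12 (adjusted p = 0.301).

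Genes of disease-associated microglia did not rise as a group: of 15 tested, 1 rose and 2 fell, with a median of -0.09. Ch25h, the enzyme that makes 25-hydroxycholesterol and is also found in endothelial cells, was 0.774 ± 0.527 TPM in Con and 4.83 ± 1.56 TPM in CAC and rose by 1.71 (adjusted p = 2.65e-07). Axl, a receptor kinase, fell by 0.20 (adjusted p = 0.0395) and Cd63, a lysosomal tetraspanin, by 0.26 (adjusted p = 0.0153). Axl was at 43.3 TPM in Con replicate 5 and at 33.0 to 34.1 TPM in the rest of Con. Typical inducible members were near 0 in most libraries: the CAC medians were 0.0768 TPM for Cst7, 0.12 TPM for Itgax and 0.287 TPM for Clec7a. None of the 3 tested activation cytokines was called (1 had an unadjusted p under 0.05), and Tnf stood at no more than 0.185 TPM in CAC.

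Markers of other cells of the tissue were read beside these results. Of 7 tested border macrophage markers Lyve1 rose by 0.62 (adjusted p = 0.0113), and the summed level of the list was 14.95 to 25.4 TPM in CAC and 17.0 to 35.2 TPM in Con. Of 2 tested monocyte markers Ly6c2 rose by 0.79 (adjusted p = 0.000282). The endothelial gene Ly6c1, which is nearly identical to Ly6c2 in sequence, rose by 0.86. The defining monocyte receptor Ccr2 was at 0.0681 to 0.35 TPM in CAC. Which cells the Ly6c2 rise came from was not tested. The summed monocyte list was 24.4 to 45.0 TPM in CAC and 21.7 to 42.3 TPM in Con. Neutrophil markers summed to 3.96 to 22.7 TPM in CAC and 4.75 to 33.4 TPM in Con, with 0 of 2 tested called (none at an unadjusted p under 0.05). The T cell marker Cd3e had a median of 0 TPM in both arms. The 1 tested gene of that list, Lck, which neurons also express, fell by 0.45 (adjusted p = 0.00417). In Con replicate 5 Lck was at 2.11 times the median of the rest of its group.

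Of the other brain cell lists at 8 weeks, astrocyte markers had 2 of 10 higher, Gjb6 (0.57) and Aldoc (0.21), and 3 lower, with Aqp4 (-0.71) and Slc7a10 (-0.41) in front. Oligodendrocyte markers had 3 of 10 lower, with Opalin (-1.22) and Ugt8a (-0.72) in front. Of 10 endothelial markers Ly6c1 rose and Kdr fell by 0.78, and of 8 meningeal fibroblast markers Lum (-0.47) and Col3a1 (-0.42) fell. Of the 3 tested B cell markers Ighm alone was called, lower in CAC. Ighm was at 256 TPM in Con replicate 5 and at 54.9 to 65.7 TPM in the rest of Con. Erythroid, striatal, thalamic and choroid plexus markers had no call. The part of these cells in the members' values was not tested.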

How the data were processed

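RNA of mouse neocortex was sequenced in 62 libraries (Trizol RNA, stranded mRNA libraries, NovaSeq, per the labels). The authors deposited 1 table of TPM values, and each column sums to 1000000. The submitters' processing notes name the build mm10. How reads were aligned, quantified and annotated is not stated in those sources.

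TPM values were turned to log2(TPM + 1) and genes whose mean reached 1 TPM were kept (14494 of 47643). limma 3.58.1 in R 4.3.3 fitted 1 model of 12 groups (50 residual degrees of freedom) with a variance trend, and p-values were adjusted by Benjamini-Hochberg within each of 15 comparisons. An adjusted p under 0.05 is a call. P-values rest on the spread between samples within groups, pooled over all 12 groups, and not on that of the compared groups alone. Members were matched by symbol. Low TPM values rise in steps of 1 read, which with exon lengths of GENCODE vM21 gave estimated depths of 44905100 to 50623000 reads a library (median 48086550), with 86.4% of 207420 low values within 0.05 of a whole read. The members then had about 59.9 (Tlr2) to 5319 (Csf1r) reads a library.

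On simulated data of the CAC against Con design at 8 weeks (14494 genes), 50 genes were changed at each fold. Of these, 70% at 1.3-fold, 94% at 1.5-fold, 98% at 2-fold and 100% at 4-fold were recovered, and 2.69% of calls were false. The noise was drawn independently for each gene, with the same spread in every group and no library set apart. The measured data depart from these settings, so the rates need not hold for them. Alternatives were another pseudocount (0.1), no filter on level, TMM scaling, robust moderation, a replicate block, a fit of only the groups compared, a lane term at 4 weeks, libraries left out and, chosen after seeing the data, a fit without both libraries that stood apart. TMM factors were computed from the TPM values by a short function written for this work (0.3 trimmed from the ratios, 0.05 from the levels). Since TPM values are not counts, no count model was used. The members, the marker lists and the tests were chosen with earlier results of these data known. All 38 members were to be named, with the values of every library for the homeostatic and pan-myeloid genes, the members with the lowest p at 8 weeks and families; from other lists, the called genes with the lowest p, up to 4. Promoter windows came from RefSeq (GRCm38.p6). The values of 2 called genes of the other lists are not reported here.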

Additional observations from a re-analysis of the deposited data

Results flagged for a closer look

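In 73 of 444 tests of a member in a group, 1 library lay farther from the rest than Dixon's critical value (0.71 for 5 samples, 0.568 for 7); chance alone gives about 1 in 20. The flags fell in 18 libraries, with 24 in Con replicate 5 at 8 weeks and 20 in CAC replicate 2 at 6 weeks. They are levels of 1 library each, in TPM, and which of them is a property of the animal was not tested.

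Con replicate 5 at 8 weeks was the highest of its group for C1q and lysosomal genes: C1qa at 296 TPM, C1qb at 189 TPM, C1qc at 103 TPM, Ctss at 397 TPM and Laptm5 at 49.1 TPM. It was the highest for the surface genes Csf1r (111 TPM), Selplg (74.8 TPM), Cx3cr1 (65.6 TPM), P2ry12 (63.3 TPM), Itgb5 (62.6 TPM), Tmem119 (55.6 TPM), Cd53 (24.3 TPM) and Ly86 (68.8 TPM). It was the highest for Tyrobp (88.9 TPM), Fcer1g (24.3 TPM), Fcgr3 (24.9 TPM), Trem2 (12.4 TPM), Inpp5d (10.1 TPM) and Aif1 (23.8 TPM), and for Cd14 (9.74 TPM), Tlr2 (3.36 TPM), Irf8 (5.58 TPM), Spi1 (5.30 TPM) and Ikzf1 (5.19 TPM).

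CAC replicate 2 at 6 weeks was the highest of its group for Ctss (390.3 TPM), C1qa (331 TPM), C1qb (217 TPM), C1qc (125 TPM), Cd68 (27.4 TPM) and Laptm5 (39.3 TPM). Its surface and signalling genes included Tyrobp at 122 TPM, Csf1r at 101 TPM, Ly86 at 60.1 TPM, Tmem119 at 59.2 TPM, Fcer1g at 30.8 TPM, Cd53 at 20.9 TPM and Trem2 at 12.96 TPM. The other genes were Aif1 (21.1 TPM), Cd14 (15.3 TPM), Lpcat2 (9.54 TPM), Tlr2 (7.02 TPM), Spi1 (6.53 TPM), Irf8 (4.09 TPM) and Ikzf1 (4.03 TPM).

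Con replicate 3 at 2 weeks was the highest of its group for C1qb (104 TPM), C1qc (58.3 TPM), Tmem119 (47.3 TPM), Sall1 (29.2 TPM), Lpcat2 (11.7 TPM), Tlr7 (3.86 TPM) and Ikzf1 (3.56 TPM). NCAC replicate 1 at 6 weeks was the highest for Ctss (184 TPM), Gpr34 (20.4 TPM), Fcgr3 (16.2 TPM) and Trem2 (8.39 TPM). Con replicate 2 at 6 weeks was the highest for P2ry13 (17.7 TPM), Spi1 (4.29 TPM) and Tlr2 (2.57 TPM).

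In CAC at 8 weeks replicate 3 had the highest Fcrls (6.58 TPM) and the lowest Mertk (17.1 TPM), replicate 5 the highest Sall1 (24.9 TPM) and replicate 6 the lowest Ctss (103 TPM). In CAC at 4 weeks replicate 4 had the highest Tmem119 (38.3 TPM) and Ikzf1 (3.28 TPM), and replicate 2 the lowest Olfml3 (1.83 TPM). Single high values in Con were Inpp5d in replicate 4 at 4 weeks (10.2 TPM), Cd33 in replicate 1 at 6 weeks (5.12 TPM) and Slc2a5 in replicate 2 at 8 weeks (2.95 TPM). Single values in NCAC were a low C1qb in replicate 2 at 2 weeks (58.5 TPM), a low C1qa in replicate 3 at 6 weeks (101 TPM), a high Cx3cr1 in replicate 5 at 6 weeks (47.9 TPM), a low C1qc in replicate 2 at 8 weeks (30.9 TPM) and a high Laptm5 in replicate 5 at 8 weeks (29.0 TPM).

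P2ry13 had a CAC to Con difference that was more negative at 8 than at 2 weeks, by -0.69 on the log2(TPM + 1) scale (adjusted p = 0.0383 by limma's interaction test).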

How the results depend on the processing

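Members called out of 37 are given. With pseudocount 0.1 and with robust moderation no count moved by more than 1.5 times, and no difference called with the fit reported changed sign in any alternative. For CAC against Con at 8 weeks, P2ry12, P2ry13, Cx3cr1, Hpgds, Lpcat2, Olfml3 and Aif1 were called in 20 of 20 alternatives, Gpr34 in 19, Laptm5 in 16, Cd33 in 15, Trem2 in 13, Cd53 and Csf1r in 12, Fcrls in 11 and Itgb5 in 10. For CAC against NCAC at 8 weeks P2ry13 was called in 20 of 20, P2ry12 in 19, Fcrls and Hpgds in 18, Cx3cr1 in 15, Olfml3 in 14, Gpr34 in 11, Tlr7 in 10 and Cd14 in 7. The CAC to Con difference at 8 against 2 weeks had 1 call, P2ry13, and 0 without the filter on level and with TMM scaling. A voom fit on reads estimated from the TPM values was tried after seeing the data and set aside, because TPM values are not counts; its values are not reported. When only the groups compared were fitted, the counts were 0 for CAC against Con at 6 weeks, 8 at 8 weeks, 2 for CAC against NCAC at 8 weeks and 0 for 8 against 2 weeks. Without the 3 libraries set apart by tissue markers (Con replicate 5 at 2 weeks, CAC replicate 1 at 4 weeks and CAC replicate 3 at 8 weeks) the counts were 2 for NCAC against Con at 2 weeks, 2 for CAC against Con and 5 for CAC against NCAC at 6 weeks, and 2 for 8 against 2 weeks. Without both libraries that stood apart they were 3 and 2 for CAC and NCAC against Con at 2 weeks, and 4 and 9 for CAC against Con and NCAC at 6 weeks; at 8 weeks they were 10 for CAC against Con (9 lower, and Cd14 higher) and 11 for CAC against NCAC. Leaving out 1 library at a time gave 0 to 2 for CAC against Con at 6 weeks, 9 (without Con replicate 5) to 17 (without CAC replicate 3) at 8 weeks, 0 to 1 for CAC against NCAC at 4 weeks (1 without CAC replicate 5), 2 to 9 at 6 weeks (9 without CAC replicate 2), 4 to 11 at 8 weeks (4 without NCAC replicate 5, 5 without CAC replicate 6, 11 without CAC replicate 3), 0 to 3 for 8 against 2 weeks and 0 to 1 for NCAC against Con at 2 weeks; every other comparison stayed at 0. Over all genes, the 1247 calls of CAC against Con at 8 weeks ranged from 723 to 1762 in these fits and were 498 with the replicate block and 2020 without the 3 libraries; the 873 of CAC against NCAC ranged from 407 to 1639 and were 290 with the block, 287 with only the groups compared and 1975 without the 3 libraries; the 620 of CAC against Con at 2 weeks ranged from 78 to 1234 and were 0 with only the groups compared; the 1262 of NCAC against Con at 2 weeks ranged from 129 (without NCAC replicate 2) to 1900 (without NCAC replicate 4) and were 9 with only the groups compared; at 4 weeks CAC against Con ranged from 1 to 760 and CAC against NCAC from 0 to 1566. With TMM scaling the 1399 calls of CAC against NCAC at 6 weeks (1167 higher) were 720 (279 higher). The cause of these changes was not tested.

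The replicate numbers did not pair the samples: of 60 pairs with the same number, 19 had a correlation of deviations above 0.1 (range -0.25 to 0.28), and in 0 of 12 comparisons did all 5. With the replicate block the counts were 8 for CAC against Con and 2 for CAC against NCAC at 8 weeks, and 0 for 8 against 2 weeks; numbers 6 and 7 occur only in CAC at 8 weeks, so those libraries carry no weight in that fit.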

Other observations

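Both libraries with the highest level of the microglia genes were also high in antigen presentation and interferon-response genes, which were chosen after their values were seen. In Con replicate 5 at 8 weeks, Cd74, the invariant chain of MHC class II, was at 611 TPM against a median of 7.69 TPM in the other 4 libraries of its group. B2m, the light chain of MHC class I, was at 935 TPM against 205 TPM, and the class I gene H2-K1 at 203 TPM against 19.4 TPM. In CAC replicate 2 at 6 weeks Cd74 was at 20.6 TPM against 6.22 TPM, B2m at 442 TPM against 155 TPM and H2-K1 at 69.6 TPM against 20.6 TPM.

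The chemokines Ccl5 and Cxcl10 were at 20.5 and 11.2 TPM in the Con library, against medians of 0.15 and 0.45 TPM, and at 7.69 and 10.1 TPM in the CAC library, against 0.04 and 0.18 TPM. Of genes induced in responding microglia, Cst7 (2.37 and 1.97 TPM), Itgax (3.23 and 3.80 TPM) and Clec7a (3.87 and 4.56 TPM) were high in both. Each stood against a median of at most 0.53 TPM in the rest of its group, and Cst7 reached 2.27 TPM in another library. Spp1 (1.46 and 0.86 times that median), Apoe (1.10 and 1.23), Lpl (0.82 and 1.10) and Axl (1.27 and 1.26) stood closer to the rest. Of 15 tested disease-associated genes, 3 in the Con library and 2 in the CAC library exceeded 1.5 times. Gfap, the intermediate filament of reactive astrocytes, was at 329 TPM in the Con library and 317 TPM in the CAC library, against medians of 112 and 143 TPM.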
